A study of Mus musculus with 10 samples.

Results

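The proteasome subunit genes are described here in keratinocytes of a mouse model of Hutchinson-Gilford progeria. The members are the table lines whose gene symbol begins with Psma to Psmg followed by a number. They were grouped as the 20S core (Psma and Psmb), the 19S cap (Psmc and Psmd) and the regulators (Psme, Psmf and Psmg). A line is a locus assembled by the authors and given 1 level per genotype. There were 52 member lines among the 11290 usable lines of the basal table, and 49 among the 11464 usable lines of the suprabasal table. All 49 suprabasal lines also had a basal line, and the 52 lines carry 48 distinct symbols.

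RNA was sequenced from FVB/N mouse skin keratinocytes sorted by flow cytometry at postnatal day 4. The groups were bitransgenic HGPS (BT) basal cells with 2 samples, wild type basal cells with 3, BT suprabasal cells with 2 and wild type suprabasal cells with 3. The labels name neither the transgenes nor the promoter that drives them, and do not say whether a sample is 1 animal. Each group appears in the deposited tables as 1 pooled value, so no value has a spread over samples and the depth is unknown. Levels are in FPKM, fragments scaled by transcript length and library size, and fold changes are BT over wild type. Lmna, which encodes lamin A, stood at 536 FPKM in BT and 564 FPKM in wild type basal cells, and at 397 FPKM in BT and 460 FPKM in wild type suprabasal cells. A gene total of this kind does not separate progerin from normal lamin A, so it does not check the genotype labels.

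The 26S proteasome degrades proteins that carry ubiquitin chains. Its 20S core is a barrel of stacked rings, in which the outer alpha subunits form the gate and some of the inner beta subunits hold the active sites. The 19S cap recognises the substrate, removes its ubiquitin and unfolds it with a ring of ATPases. In cells exposed to interferon gamma, 3 beta subunits can be replaced by Psmb8, Psmb9 and Psmb10, which gives the immunoproteasome and alters the peptides available for antigen presentation. When proteasome activity is limiting, the transcription factor Nrf1 (gene Nfe2l1) raises the transcription of many subunit genes at once. Progerin is a truncated, permanently farnesylated lamin A.

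The bases before the start site are printed for 3 members, because Psmc6 and Psmd12 were the members with the smallest p-values and Psmb9 is an interferon-responsive subunit described below. The sequences are from RefSeq on GRCm38.p6, run 5′ to 3′ on the strand of the gene, and hold 250 bases each. They cover chr14:45329574-45329823 on the plus strand for Psmc6, chr11:107479278-107479527 on the plus strand for Psmd12 and chr17:34187331-34187580 on the minus strand for Psmb9. Capitals mark matches, on either strand, to TGANNNNGC, to the CCAAT box or to the interferon response motif AANNGAAA. TGANNNNGC is a loose form of the core of the antioxidant response element bound by Nrf1 and Nrf2. It takes any base after TGA, so a match need not be the element.
Psmc6: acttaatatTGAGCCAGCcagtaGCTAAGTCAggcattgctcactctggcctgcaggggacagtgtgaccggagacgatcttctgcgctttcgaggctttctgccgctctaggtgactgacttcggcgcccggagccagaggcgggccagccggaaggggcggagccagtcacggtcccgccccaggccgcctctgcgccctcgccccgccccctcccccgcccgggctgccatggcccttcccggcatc
Psmd12: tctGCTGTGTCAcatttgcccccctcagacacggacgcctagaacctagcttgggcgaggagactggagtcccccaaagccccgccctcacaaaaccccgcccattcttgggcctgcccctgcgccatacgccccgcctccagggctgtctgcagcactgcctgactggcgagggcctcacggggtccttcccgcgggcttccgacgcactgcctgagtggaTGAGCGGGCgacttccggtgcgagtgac
Psmb9: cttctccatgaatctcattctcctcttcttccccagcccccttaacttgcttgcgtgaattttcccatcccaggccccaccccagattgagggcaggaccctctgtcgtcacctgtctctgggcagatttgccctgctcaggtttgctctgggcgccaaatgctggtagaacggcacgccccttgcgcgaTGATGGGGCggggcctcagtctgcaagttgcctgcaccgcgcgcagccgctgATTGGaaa
Psmc6 and Psmd12 each held 2 matches to TGANNNNGC in this stretch, and Psmb9 held 1 as well as a CCAAT box in reverse orientation. None of the 3 stretches held the interferon response motif. RefSeq windows of 300 bases, which also include 50 bases after the start, were matched for 40 of the 47 member symbols, leaving out Psmc3ip, and gave 43 promoters. TGANNNNGC occurred in 24 of these 43 promoters (55.8%), against 41.3% of all 32851 promoters. It was in 11 of 15 promoters of 20S genes (73.3%) and in 8 of 18 promoters of 19S genes (44.4%). CCAAT was in 13 member promoters (30.2%), against 37.4% of all promoters. AANNGAAA was also in 13 (30.2%), against 23.9% of all promoters. These matches describe the letters only.

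No proteasome line passed the authors' q under 0.05 in either layer. Over all lines, 1.65% were called in basal cells and 0.471% in suprabasal cells. At an unadjusted p under 0.05, 2 of 52 member lines passed in basal cells (Psmc6 and Psmd12), where 7.68% of all lines did. In suprabasal cells 0 of 49 member lines passed that limit, where 7.11% of all lines did. Readjusting the p-values of each table by Benjamini-Hochberg also called 0 members in both layers. Most member lines had a somewhat higher level in BT than in wild type cells. In basal cells 33 of 52 lines (63.5%) were higher in BT, against 39.7% of all lines, with a median log2 fold change of 0.18 for the members and -0.12 for all lines. In suprabasal cells 32 of 49 lines (65.3%) were higher in BT, against 43.4% of all lines, with medians of 0.17 and -0.08. Measured against the median of all lines in its table, 38 of 52 basal and 35 of 49 suprabasal lines lay above it. No test was applied to these counts, because the subunits share libraries and are not replicates.

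**Figure D1:**
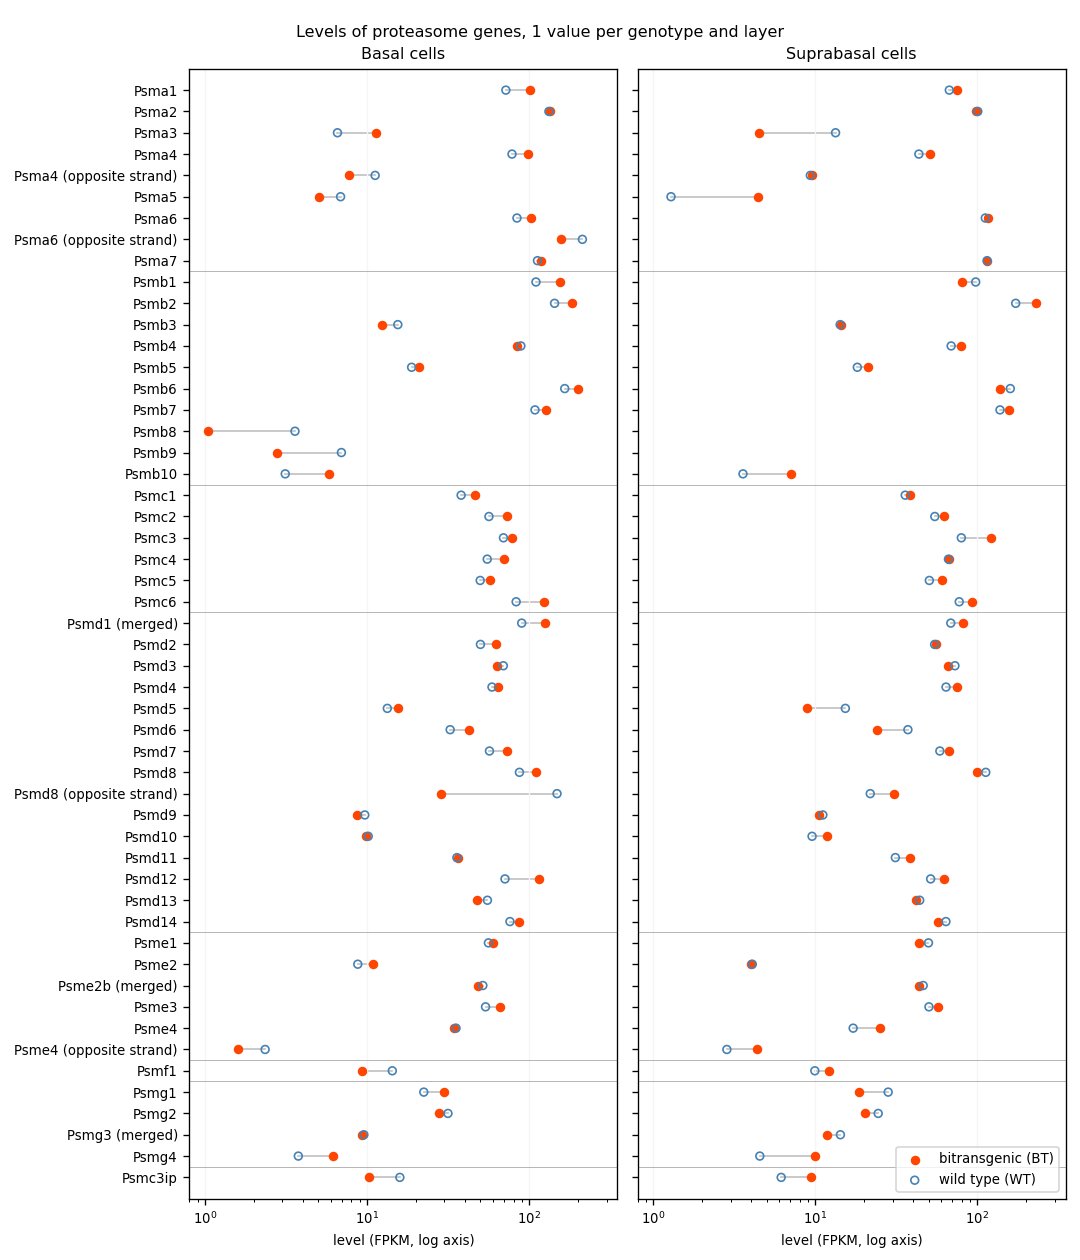
Level of every proteasome line in FPKM on a log axis in BT cells (filled) and wild type cells (open), with basal cells at left and suprabasal cells at right; each point is the authors' single value for a group, so there are no error bars. Most 20S and 19S lines lie at 30 FPKM or more with both genotypes close together, while Psmb8, Psmb9, Psmb10, Psma3 and Psma5 lie far lower in at least 1 group.

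In basal cells the higher values in BT were mostly those of the well expressed members. Among basal lines with a mean level of 30 FPKM or more over both genotypes, 26 of 33 member lines (78.8%) were higher in BT and their median log2 fold change was 0.27. Of all 2569 basal lines at that level, 49% were higher in BT and the median was -0.01. Below 30 FPKM, 7 of 19 member lines (36.8%) were higher in BT, with a median of -0.17. In suprabasal cells 20 of 30 member lines at 30 FPKM or more were higher in BT (66.7%), against 46.7% of all 2434 lines at that level. Below 30 FPKM the suprabasal share was close to that, with 12 of 19 member lines higher in BT (63.2%). For comparison with other large complexes, 31 of 82 cytosolic ribosomal protein lines were higher in BT basal cells with a median of -0.17, and 39 of 82 nuclear-encoded oxidative phosphorylation lines with a median of -0.01. In suprabasal cells 33 of 83 ribosomal protein lines and 34 of 82 oxidative phosphorylation lines were higher in BT, with medians of -0.13 and -0.09. The level limit was chosen after the data had been seen.

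**Figure D2:**
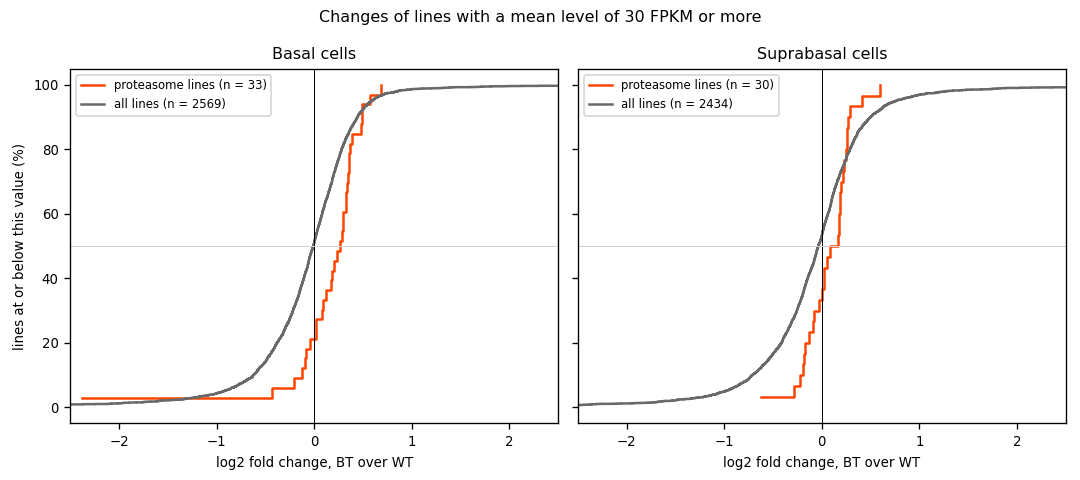
Cumulative share of lines (percent) against log2 fold change, BT over wild type, for proteasome lines and for all lines with a mean level of 30 FPKM or more, with basal cells at left and suprabasal cells at right. The proteasome curve lies to the right of the other at its middle in both layers, with 78.8% of basal and 66.7% of suprabasal member lines above 0.

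The precision of these values can be read from the standard error (SE) implied by the authors' p. The samples may not be separate animals, so the intervals below may leave out the spread between animals. They cannot say how far a change with genotype is excluded. The 31 basal lines at 30 FPKM or more on the strand of their gene had a median SE of 0.29 on the log2 scale, and 22 of them had a 95% interval inside a 2-fold change in either direction. In suprabasal cells the median SE of the 30 such lines was 0.35, and 22 of 30 intervals lay inside 2-fold. Under 30 FPKM the median SE was 0.71 in basal and 0.75 in suprabasal cells, and 2 of 19 and 0 of 19 intervals lay inside 2-fold.

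The alpha subunits (Psma1 to Psma7) form the outer rings of the core. Psma1 had the largest difference among the abundant ones, at 100.5 FPKM in BT and 71.8 FPKM in wild type basal cells (log2 fold change 0.49 ± 0.29 SE, with p = 0.092 in the authors' deposited table). Psma4 stood at 98.5 FPKM in BT and 78.3 FPKM in wild type basal cells, and Psma6 at 103 FPKM in BT and 84.0 FPKM in wild type. Psma2 and Psma7 were nearly level, with 134 FPKM in BT against 132 FPKM in wild type for Psma2, and 119 FPKM in BT against 112 FPKM in wild type for Psma7. In suprabasal cells Psma1, Psma2, Psma4, Psma6 and Psma7 all had log2 fold changes between -0.03 and 0.22.

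Psma3 and Psma5 stood apart from the other alpha subunits in level. Psma3 was at 11.3 FPKM in BT and 6.56 FPKM in wild type basal cells, and at 4.48 FPKM in BT and 13.3 FPKM in wild type suprabasal cells. Psma5 was at 5.08 FPKM in BT and 6.85 FPKM in wild type basal cells, and at 4.43 FPKM in BT and 1.29 FPKM in wild type suprabasal cells. These were the lowest (-1.57 ± 0.86 for Psma3) and the highest (1.78 ± 1.05 for Psma5) log2 fold changes among suprabasal members, with q = 0.596 and q = 0.657 in the authors' deposited table, so neither passed. The complex takes the alpha subunits in equal numbers, and the other 5 alpha subunits lay between 71.8 and 134 FPKM in basal cells of either genotype.

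**Figure D3:**
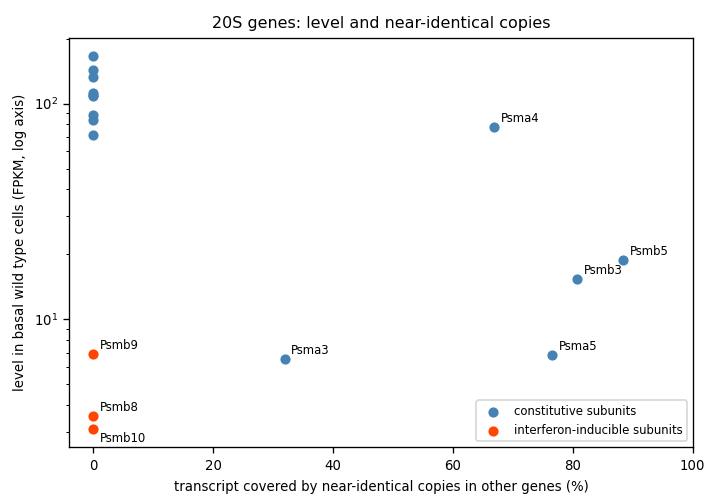
Level of each 20S gene in basal wild type cells (FPKM, log axis) against the percent of its longest coding transcript that is covered at 95% identity or more by transcripts of genes outside its own locus. Of the 4 constitutive subunits under 25 FPKM, Psma5, Psmb3 and Psmb5 have copies over more than 50% of the transcript. Psma4, at 78.3 FPKM, has copies over 66.9%, and the unlabelled subunits, all above 70 FPKM, sit at 0%.

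Near-identical copies elsewhere in the genome are annotated for several of the low 20S genes. Psma5 has 76.5% of its longest coding transcript covered by transcripts of genes outside its own locus at 95% identity or more, Psmb3 has 80.7% and Psmb5 has 88.4%, while Psma3 has 31.9%. These are the 4 constitutive 20S genes under 25 FPKM in wild type basal cells, and 3 of them have a copy over at least 50% of the transcript. Of the 10 constitutive 20S genes at 25 FPKM or more, 1 has such a copy (Psma4, 66.9%). The percent for Psma3 is taken over a longer transcript, of 2846 bases against 1239 for Psma5, 766 for Psmb3 and 899 for Psmb5. Psma3 matched 7 genes outside its locus, so its lower percent does not set it apart from the other low genes. Among all 47 symbols searched 11 had a copy outside their locus and 9 had one over at least 50% of the transcript, including Psmc1 (82.3%), Psmd2 (98.2%) and Psmd11 (52.8%). A further 7 matched only genes that overlap their own line, such as Nek6 for Psmb7 and Tap1 for Psmb9. Reads of genes with copies can be split between loci by the authors' counting, so the values of all of them are uncertain, at high as at low levels. The part of the copies in these levels was not tested.

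The beta subunits form the inner rings. Psmb1 was at 155 FPKM in BT and 110.0 FPKM in wild type basal cells (0.50 ± 0.28, p = 0.0783 in the authors' deposited table), and at 79.9 FPKM in BT and 97.6 FPKM in wild type suprabasal cells. Psmb2, the highest member of the suprabasal cells, was at 229 FPKM in BT and 172 FPKM in wild type there. In basal cells Psmb2 was at 184 FPKM in BT and 143 FPKM in wild type. Psmb4 differed little, with 83.5 FPKM in BT against 88.8 FPKM in wild type basal cells, and Psmb3 was at 12.3 FPKM in BT against 15.5 FPKM in wild type. A line is termed single-gene where it names 1 symbol, although its span can hold other genes, such as Nek6 for Psmb7. Summed over the 17 single-gene 20S lines on the strand of their gene, the core had 1363 FPKM in BT and 1156 FPKM in wild type basal cells, a ratio of 1.18. The 15 such lines of suprabasal cells summed to 1188 FPKM in BT and 1124 FPKM in wild type, a ratio of 1.06. Over all lines the basal ratio of sums was 0.81 and the suprabasal ratio 1.08, so the suprabasal core lay just below the latter. Such sums lean on the most abundant lines. All basal lines at 30 FPKM or more had a ratio of 0.794, although their median log2 fold change was -0.01.

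The proteolytic sites of the core are on the constitutive subunits Psmb6, Psmb7 and Psmb5. Psmb6, the caspase-like site, was at 199 FPKM in BT and 166 FPKM in wild type basal cells, and at 137 FPKM in BT and 159.5 FPKM in wild type suprabasal cells. Psmb7, the trypsin-like site, was at 128 FPKM in BT and 109 FPKM in wild type basal cells, and at 156 FPKM in BT and 138 FPKM in wild type suprabasal cells. Psmb5, the chymotrypsin-like site, was at 21.02 FPKM in BT and 18.8 FPKM in wild type basal cells, and at 21.2 FPKM in BT and 18.1 FPKM in wild type suprabasal cells. None of the 3 passed in either layer, and Psmb5 carries the copies described above.

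The immunoproteasome subunits were low in every group that had a value. Psmb8 was at 1.04 FPKM in BT and 3.59 FPKM in wild type basal cells (-1.79 ± 1.40, q = 0.530 in the authors' deposited table). Psmb9 was at 2.76 FPKM in BT and 6.93 FPKM in wild type basal cells (-1.33 ± 1.63, q = 0.729 in the authors' deposited table). Both were the lowest fold changes among the single-gene 20S lines, but their 95% intervals, from -4.53 to 0.96 and from -4.52 to 1.87, include no change. Neither gene had a usable line in the suprabasal table. Psmb10 went the other way, at 5.82 FPKM in BT and 3.12 FPKM in wild type basal cells (0.90 ± 1.21) and at 7.05 FPKM in BT and 3.58 FPKM in wild type suprabasal cells (0.98 ± 1.16). Within a group, Psmb9 made up 1.37% of the summed level of Psmb6 and Psmb9 in BT basal cells and 4.02% in wild type. Psmb10 made up 4.36% of Psmb7 plus Psmb10 in BT basal cells and 2.8% in wild type, and 4.33% in BT and 2.53% in wild type suprabasal cells. Psmb8 made up 4.71% of Psmb5 plus Psmb8 in BT basal cells and 16% in wild type, a share that rests on the uncertain Psmb5 level.

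The loci of these subunits limit their values. The Psmb9 line spans 15.2 kb (chr17:34181988-34197225, mm10), against 5.78 kb for the annotated gene, and its span holds the neighbouring antigen transporter gene Tap1. The Psmb8 line spans 18.6 kb (chr17:34197721-34216321), against 3.73 kb for the gene, and holds Tap2. The Psmb10 line spans 31.8 kb, against 2.71 kb, and holds Lcat and Slc12a4. Tap1 and Tap2 have lines of their own. Tap1 was at 6.81 FPKM in BT and 18.6 FPKM in wild type basal cells (q = 0.466 in the authors' deposited table), and at 7.004 FPKM in BT and 6.943 FPKM in wild type suprabasal cells. Tap2 was at 4.13 FPKM in BT and 3.61 FPKM in wild type basal cells, and at 2.89 FPKM in BT and 5.09 FPKM in wild type suprabasal cells. Leukocytes express the immunoproteasome at high level, and of 15 leukocyte markers 1 had a basal line, Cd74, at 5.02 FPKM in BT and 5.79 FPKM in wild type. Their part in the Psmb8 and Psmb9 values was not tested.

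The 19S ATPases Psmc1 to Psmc6, the ring that unfolds the substrate and opens the core, were the most uniform group. All 6 were higher in BT in both layers, with log2 fold changes from 0.19 to 0.57 in basal cells (median 0.31) and from 0.02 to 0.60 in suprabasal cells (median 0.22). Their summed level was 449 FPKM in BT and 351.7 FPKM in wild type basal cells, a ratio of 1.28, and 440.3 FPKM in BT and 363.9 FPKM in wild type suprabasal cells, a ratio of 1.21. The ratios over all lines were 0.81 and 1.08, but such sums lean on the most abundant lines and do not give the typical line. For ribosomal protein lines the basal ratio was 0.904. Their suprabasal ratio was 1.54, above that of the ATPases, although their median log2 fold change there was -0.13. For oxidative phosphorylation lines the basal ratio was 1.03 and the suprabasal ratio 0.879. No single ATPase passed.

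Psmc6 had 124 FPKM in BT and 83.1 FPKM in wild type basal cells (chr14:45329824-45349071, mm10). Its log2 fold change was 0.57 ± 0.28, with a 95% interval from 0.03 to 1.12, p = 0.0390 and q = 0.330 in the authors' deposited table. In suprabasal cells it had 92.1 FPKM in BT and 77.2 FPKM in wild type (0.25 ± 0.34). Psmc3 showed the larger difference in suprabasal cells, with 121 FPKM in BT and 79.6 FPKM in wild type (0.60 ± 0.37, q = 0.719 in the authors' deposited table), and 78.8 FPKM in BT against 69.3 FPKM in wild type basal cells. The basal levels of the others were 46.2 FPKM in BT and 38.0 FPKM in wild type for Psmc1, and 73.0 FPKM in BT and 56.4 FPKM in wild type for Psmc2. Psmc4 had 70.0 FPKM in BT and 55.1 FPKM in wild type, and Psmc5 had 57.4 FPKM in BT and 49.8 FPKM in wild type basal cells.

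**Figure D4:**
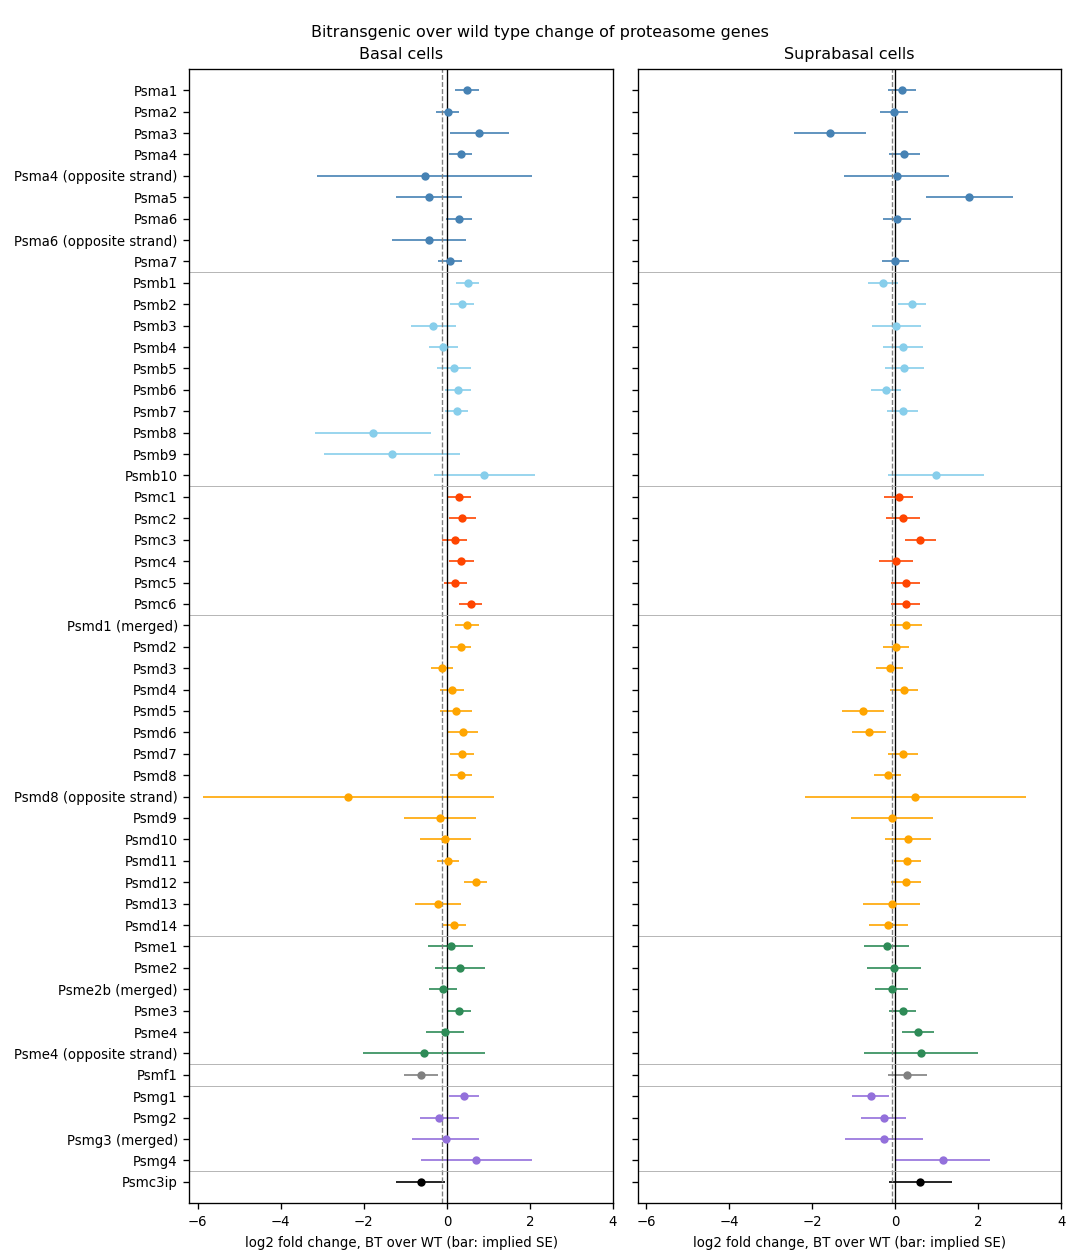
Log2 fold change, BT over wild type, of every proteasome line in basal cells (left) and suprabasal cells (right), coloured by subunit class; bars are the SE implied by the authors' p and the dashed line is the median of all lines (-0.12 basal, -0.08 suprabasal). The 6 ATPases (Psmc1 to Psmc6) lie right of 0 in both layers, and the widest bars belong to opposite-strand lines and to members under 30 FPKM.

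The non-ATPase subunits of the cap hold the ubiquitin receptors, the scaffold and the deubiquitinase. Psmd12, a lid scaffold subunit, had the smallest p of any member. It was at 114 FPKM in BT and 70.9 FPKM in wild type basal cells (chr11:107479484-107504362, mm10), a log2 fold change of 0.69 ± 0.28 with a 95% interval from 0.13 to 1.25. In the authors' deposited table p was 0.0153 and q was 0.157. In suprabasal cells Psmd12 was at 61.8 FPKM in BT and 51.4 FPKM in wild type (0.27 ± 0.35). Psmd1, the large base scaffold, is in a line merged with Armc9 and Gm21972, and that line was at 125 FPKM in BT and 89.9 FPKM in wild type basal cells (0.48 ± 0.30). Psmd14, the deubiquitinase of the lid, was at 86.0 FPKM in BT and 76.1 FPKM in wild type basal cells, and at 56.8 FPKM in BT and 63.9 FPKM in wild type suprabasal cells. Psmd4, a ubiquitin receptor, was at 64.1 FPKM in BT and 58.9 FPKM in wild type basal cells, and at 74.4 FPKM in BT and 64.0 FPKM in wild type suprabasal cells.

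In basal cells 10 of 15 non-ATPase lines were higher in BT (median 0.18), and in suprabasal cells 8 of 15 (median 0.02). Psmd2, a scaffold that binds ubiquitin-like domains, was at 62.7 FPKM in BT and 50.01 FPKM in wild type basal cells and 55.3 FPKM in BT and 54.4 FPKM in wild type suprabasal cells. The lid subunits Psmd3, Psmd7, Psmd11 and Psmd13 had log2 fold changes from -0.21 to 0.36 in basal cells and from -0.14 to 0.29 in suprabasal cells. Of these, Psmd7, the partner of Psmd14, was at 72.8 FPKM in BT and 56.8 FPKM in wild type basal cells. Psmd6, a lid subunit, and Psmd5, a chaperone of base assembly that leaves the finished particle, had the lowest suprabasal fold changes of the cap. Psmd6 was at 24.1 FPKM in BT and 37.2 FPKM in wild type suprabasal cells (-0.63 ± 0.41), and Psmd5 at 8.92 FPKM in BT and 15.3 FPKM in wild type (-0.78 ± 0.51). In basal cells both were on the other side of 0, with 42.6 FPKM in BT against 32.5 FPKM in wild type for Psmd6 and 15.4 FPKM in BT against 13.3 FPKM in wild type for Psmd5. Psmd9 and Psmd10, also assembly chaperones of the base, were the lowest cap lines in basal wild type cells. Psmd9 was at 8.60 FPKM in BT and 9.67 FPKM in wild type, and Psmd10 at 9.87 FPKM in BT and 10.2 FPKM in wild type. Psmc3ip matches the symbol rule and is counted with the cap, but it is a meiotic recombination factor and no proteasome subunit. It was at 10.2 FPKM in BT and 15.9 FPKM in wild type basal cells, and at 9.36 FPKM in BT and 6.15 FPKM in wild type suprabasal cells.

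Second lines on the opposite strand carry the symbols Psma4, Psma6, Psmd8 and Psme4. Strand was read from the order of the locus IDs, which gave the annotated strand for 98.0% of 11185 single-gene lines. The break in that order was set on each chromosome to give the most agreement, so this share is no independent check. The opposite-strand Psmd8 line had the lowest log2 fold change of any member, with 28.6 FPKM in BT and 148 FPKM in wild type basal cells, and a value of -2.38 ± 3.50 SE. The Psmd8 line on the strand of the gene was at 110.0 FPKM in BT and 87.0 FPKM in wild type basal cells (0.34 ± 0.27). The opposite-strand Psma6 line, at 158 FPKM in BT and 213 FPKM in wild type, was the highest 20S line of basal wild type cells. Counting by strand is not described in the sources used here, although the labels call the libraries strand specific, so reads of a gene and its opposite-strand line may not be told apart.

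The activators can replace or join the 19S cap. Psme1 and Psme2 encode the interferon-inducible PA28 alpha and beta chains, which assemble together. Psme1 was at 59.5 FPKM in BT and 56.0 FPKM in wild type basal cells, and at 43.5 FPKM in BT and 49.9 FPKM in wild type suprabasal cells. Psme2 was at 10.9 FPKM in BT and 8.75 FPKM in wild type basal cells, and at 3.99 FPKM in BT and 4.08 FPKM in wild type suprabasal cells. The ratio of Psme1 to Psme2 was 5.45 in BT and 6.4 in wild type basal cells, but 82.5% of the Psme2 transcript is near-identical to Psme2b. The line with Psme2b spans 231 kb, against 0.837 kb for the gene, and also names 9930111J21Rik1. It was at 48.5 FPKM in BT and 51.7 FPKM in wild type basal cells. Its span holds 8 other coding genes, among them Ifi47, Tgtp1 and Tgtp2, so its level may not be that of Psme2b. Psme3, the nuclear PA28 gamma, was at 65.8 FPKM in BT and 53.8 FPKM in wild type basal cells, and at 56.8 FPKM in BT and 50.2 FPKM in wild type suprabasal cells. Psme4, the nuclear activator PA200, was at 34.3 FPKM in BT and 35.3 FPKM in wild type basal cells, and at 25.02 FPKM in BT and 17.1 FPKM in wild type suprabasal cells (0.55 ± 0.38).

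Psmf1, the PI31 protein named for inhibition of the core, was at 9.26 FPKM in BT and 14.3 FPKM in wild type basal cells (-0.63 ± 0.41), and at 12.2 FPKM in BT and 9.92 FPKM in wild type suprabasal cells. The Psmg chaperones build the alpha ring. Psmg1 was at 29.8 FPKM in BT and 22.4 FPKM in wild type basal cells, and at 18.7 FPKM in BT and 28.1 FPKM in wild type suprabasal cells (-0.59 ± 0.45). Psmg2, its partner, was at 27.8 FPKM in BT and 31.5 FPKM in wild type basal cells, and at 20.1 FPKM in BT and 24.4 FPKM in wild type suprabasal cells. Psmg3 lies in a merged line at 9.33 FPKM in BT and 9.54 FPKM in wild type basal cells, and at 11.8 FPKM in BT and 14.3 FPKM in wild type suprabasal cells. Psmg4 was at 6.15 FPKM in BT and 3.76 FPKM in wild type basal cells, and at 10.0 FPKM in BT and 4.54 FPKM in wild type suprabasal cells (1.14 ± 1.14). Of the 11 regulator lines, 5 were higher in BT in each layer, with a median of -0.03 in both, and none passed. These medians change sign with the lines kept: over the 8 single-gene lines on the strand of their gene they were 0.19 in basal cells (5 of 8 higher) and 0.07 in suprabasal cells (4 of 8 higher).

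The signs of the changes differed between the layers for 21 of the 49 lines in both tables (42.9%), against 39.5% of all 10583 lines in both. Of the 49, 22 were higher in BT in both layers, 6 were lower in both, 11 were higher in basal and lower in suprabasal cells, and 10 were the reverse. Pearson's r of the log2 fold changes was -0.215 across these 49 lines, against 0.268 across all lines in both tables. The lines share libraries within each layer, and both values are descriptions. The r of the members leans on a few imprecise lines. These were the opposite-strand Psmd8 line (-2.38 in basal and 0.49 in suprabasal cells), Psma3 (0.78 and -1.57) and Psma5 (-0.43 and 1.78). The r without them was not computed. The median difference, suprabasal minus basal, was -0.07 for the members and -0.01 for all lines in both tables. A two-sided Wald test of that difference, with Benjamini-Hochberg adjustment over those lines, called 0.0378% of them and 0 members. At an unadjusted p under 0.05, 1 member passed (Psma3, difference -2.35 ± 1.12 SE), where 3.08% of all lines did. Psma5 had the opposite sign (2.22 ± 1.32), and both are among the subunits with copies elsewhere. The layers share some title stems among their samples, which the test takes no account of.

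**Figure D5:**
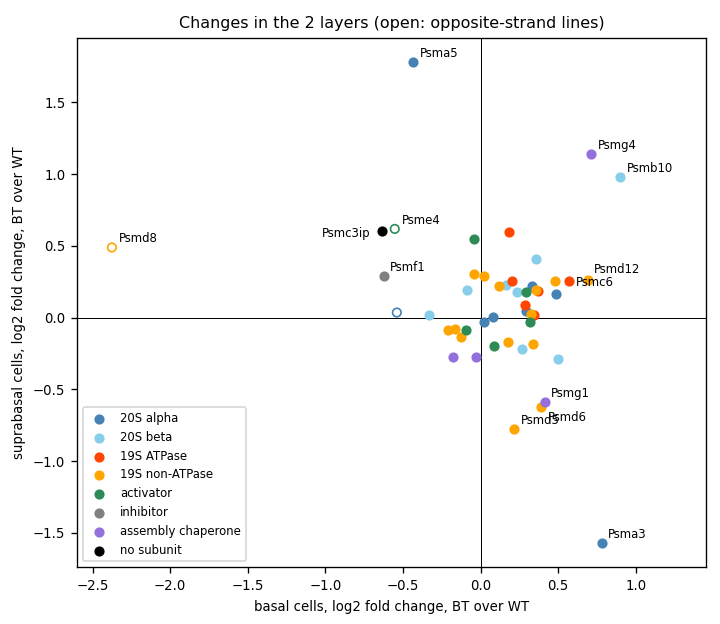
Log2 fold change, BT over wild type, in suprabasal cells against basal cells for the 49 lines measured in both, coloured by subunit class; open points are opposite-strand lines. The 6 ATPases lie above 0 on both axes, and Psma3 and Psma5 lie at the far lower right and upper left.

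Genes that build, regulate and supply the proteasome were read from lists chosen alongside the members. Of 17 assembly and accessory genes, 12 had lines, and none was called in either layer (median 0.07 in basal and -0.13 in suprabasal cells). Pomp, the maturation factor of the core, was at 143 FPKM in BT and 137 FPKM in wild type basal cells, and at 139 FPKM in BT and 169.6 FPKM in wild type suprabasal cells. Adrm1, a ubiquitin receptor of the cap, was at 12.2 FPKM in BT and 5.59 FPKM in wild type basal cells (p = 0.0817 in the authors' deposited table), but at 26.7 FPKM in BT and 27.8 FPKM in wild type suprabasal cells. Of 20 ubiquitin supply and shuttle genes 19 had lines and none was called, with medians of 0.03 in basal and -0.13 in suprabasal cells.

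Among 16 Nrf1 and Nrf2 pathway lines, 1 was called in basal cells and none in suprabasal cells, with medians of -0.22 and -0.14. Of all lines, 1.65% were called in basal and 0.471% in suprabasal cells. The called gene was Maff, a small Maf partner of these factors, which fell to 8.50 FPKM in BT basal cells, against 17.5 FPKM in wild type (-1.05 ± 0.35, q = 0.0405 in the authors' deposited table). Readjusting the authors' p-values in their deposited table by Benjamini-Hochberg left it uncalled, at an adjusted value of 0.188. Nfe2l1, which encodes Nrf1, was at 54.8 FPKM in BT and 75.8 FPKM in wild type basal cells, and at 67.1 FPKM in BT and 98.1 FPKM in wild type suprabasal cells. Nfe2l2, which encodes Nrf2, was at 82.3 FPKM in BT and 49.7 FPKM in wild type basal cells (0.73 ± 0.29, q = 0.118 in the authors' deposited table), and at 77.3 FPKM in BT and 51.4 FPKM in wild type suprabasal cells. Its repressor Keap1 was at 8.70 FPKM in BT and 14.8 FPKM in wild type basal cells (q = 0.133 in the authors' deposited table). Neither Nfe2l2 nor Keap1 passed.

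Of 26 interferon and antigen processing genes, 20 had a basal line and 21 a suprabasal line, with 22 lines in each layer. Of these lines, 2 were called lower in BT basal cells and 1 in BT suprabasal cells. Over all lines, 157 of 11290 were called lower in BT basal cells and 48 of 11464 in BT suprabasal cells. Irf1, a transcription factor of the immunoproteasome genes, fell to 52.4 FPKM in BT basal cells, against 119 FPKM in wild type (-1.18 ± 0.38, q = 0.0371 in the authors' deposited table). The same readjustment gave 0.162, so the call rests on the authors' q. Irf1 was at 27.0 FPKM in BT and 78.9 FPKM in wild type suprabasal cells, where it did not pass (q = 0.136 in the authors' deposited table). Socs3, an inhibitor of cytokine signalling, fell to 48.5 FPKM in BT basal cells, against 117 FPKM in wild type, and to 22.1 FPKM in BT suprabasal cells, against 74.6 FPKM in wild type (q = 0.0135 in basal and q = 0.0161 in suprabasal cells in the authors' deposited tables). Irf1 and Socs3 are rapidly inducible genes, and of 23 immediate early and heat shock lines 6 were called lower in BT basal cells (median -0.84) and 5 of 22 in BT suprabasal cells (median -1.16). The Benjamini-Hochberg readjustment called 4 of these lines in basal cells, without Fos and Fosb, and 5 in suprabasal cells. The part of these genes in the Irf1 and Socs3 values was not tested.

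Other cell types and layer identity were read from summed marker levels. The 13 basal keratinocyte markers summed to 12350 FPKM in BT and 19230 FPKM in wild type basal cells, and to 4902 FPKM in BT and 8927 FPKM in wild type suprabasal cells. Most of each sum came from merged keratin lines. The Krt5 line, which also names Krt2, Krt6b, Krt72, Krt76 and Krt8, had 6923 FPKM in BT and 11677 FPKM in wild type basal cells. The Krt14 line, which also names Krt16, had 3926 FPKM in BT and 4375 FPKM in wild type basal cells. By line, 12 of 13 were lower in BT basal cells and 11 of 13 in BT suprabasal cells (median log2 fold changes -0.41 and -0.38). The 13 suprabasal markers summed to 10820 FPKM in BT and 8749 FPKM in wild type basal cells, and to 14370 FPKM in BT and 18900 FPKM in wild type suprabasal cells. A few abundant genes carry these last sums: 7 of 13 lines were higher in BT basal cells (median log2 fold change 0.02) and 9 of 13 in BT suprabasal cells (median 0.21). Krtdap alone was at 6915 FPKM in BT and 4173 FPKM in wild type basal cells, and Krt10 at 2354 FPKM in BT and 6574 FPKM in wild type suprabasal cells. By the authors' deposited q, Krt15 was called lower in BT basal (-2.38, q = 0.0371) and BT suprabasal cells (-3.04, q = 0.0161). By that q, Dsc1 was called higher (1.48, q = 0.00858) and Lor lower (-2.44, q = 0.0347) in BT basal cells. No other keratinocyte marker line was called. Benjamini-Hochberg readjustment of the authors' p left Krt15 and Lor uncalled in basal cells, at 0.0941 and 0.0513. In both genotypes the basal marker sum was higher in the basal table and the suprabasal marker sum higher in the suprabasal table. Single suprabasal markers did not all follow. Tgm3 was higher in the basal table in BT (58.0 against 24.3 FPKM) and in wild type (92.9 against 43.7 FPKM). In BT, Krt1 (1750 against 1622 FPKM) and the Dsg1a line (48.0 against 31.6 FPKM) were also higher in the basal table. The other suprabasal marker lines were higher in the suprabasal table in both genotypes, as were Krt1 and Dsg1a in wild type. The tables were normalized separately. Melanocyte markers, 8 of 8 with lines, summed to 3843 FPKM in BT and 2073 FPKM in wild type suprabasal cells, and 3 of 8 to 12.9 FPKM in BT and 8.38 FPKM in wild type basal cells. Fibroblast markers, 7 of 9 with lines, summed to 527 FPKM in BT and 341 FPKM in wild type suprabasal cells, and 4 of 9 to 12.5 FPKM in BT and 22.01 FPKM in wild type basal cells. Without Vim, which melanocytes also express, the 6 other suprabasal lines summed to 35.3 FPKM in BT and 25.6 FPKM in wild type, with 4 higher and 2 lower in BT. Leukocyte markers had 2 of 15 lines in suprabasal cells, at 16.4 FPKM in BT and 14.2 FPKM in wild type, and no endothelial marker of 7 had a line. The part of these cells in the proteasome values was not tested. In such bulk samples fewer cells of a type and less RNA per cell cannot be told apart.

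The members without a usable value complete the account. The GENCODE M21 annotation holds 50 protein-coding symbols that match the rule, and Psma8 (a testis subunit) and Psmb11 (a thymus subunit) had no line in either table. No member line was in the status reserved for loci with too many reads. The 52 lines lie on 16 chromosomes, and the spans of 15 lines hold another coding gene. The median ratio of the suprabasal to the basal level was 0.902 in BT and 0.943 in wild type for the members, against 0.982 in BT and 0.975 in wild type for all lines, with the tables normalized separately.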

How the data were processed

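The study sequenced RNA of 10 samples in 4 groups and its authors deposited 1 table per skin layer. Per the submitters' processing notes, TopHat and Cufflinks were used with the mm10 build (versions not given), and the columns are those Cuffdiff writes. The unit of the deposited levels is not in the header and was read as FPKM from that form. The authors' fold changes are log2 ratios of the levels, and their p-value and q-value (adjusted p) were taken as deposited. Their test statistic, a deposited score, was not used. The authors pooled the replicates, so depth, spread and intervals over samples are unknown, and p-values measure only the spread between samples that may be technical.

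Lines of status OK were used (11290 of 11316 basal and 11464 of 11490 suprabasal lines), and a line was called at the authors' q under 0.05. The SE is the size of the log2 fold change over the normal quantile that gives the authors' p in both tails. The layer difference used a two-sided Wald test, which was tested on simulated data. Copies were found with BLAST+ 2.17.0 (95% identity, 100 bases or more) among GENCODE M21 transcripts. Work was done in Python 3.11.15 with numpy 2.4.6, scipy 1.17.1 and pandas 2.3.3. The members and lists were chosen with earlier results of these data known. Members named in full were those with the authors' p under 0.05, the catalytic subunits, all regulators, and the highest, lowest and most changed members by a fixed rule. Other members and genes were named after their values were seen. Adjustment, scaling, low-value, merged-line and pseudocount alternatives were run.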

Additional observations from a re-analysis of the deposited data

How the results depend on the processing

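The count of proteasome lines called was 0 in both layers under every alternative run: Benjamini-Hochberg adjustment, centring, a limit of 5 FPKM, and leaving out merged lines. At an unadjusted p under 0.05 it was 2 in basal and 0 in suprabasal cells. Over all lines, the authors' q called 186 in basal and 54 in suprabasal cells, while readjustment of their p called 63 and 47. Centring on the median of lines with at least 1 FPKM in both groups (shifts of -0.1112 and -0.0795) with recomputed p called 41 and 37. The cause of the drop was not tested.

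The median log2 fold change of all members, the 20S lines and the 19S lines kept its sign under each alternative. The median of the regulators, near 0, reversed. In basal cells it was 0.0786 centred, 0.0277 with 5 FPKM or more, 0.0881 without merged lines and 0.0277 without opposite-strand lines. In suprabasal cells it was 0.0492 centred and 0.1767 without merged lines. The suprabasal median of the 19S non-ATPase lines was -0.0279 without merged or without opposite-strand lines, and that of the activators was -0.0302 without opposite-strand lines. Centring reversed 8 member lines, all near 0: Psmd10 (0.0701), Psme4 (0.0699), Psmg3 (0.0786), Psmb4 (0.0232) and Psme2b (0.017) in basal cells, and Psmd9 (0.0004), Psme2 (0.0492) and Psma2 (0.0515) in suprabasal cells. The opposite-strand, Psmc3ip and 30 FPKM alternatives were chosen after seeing the data.

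No paired analysis was possible because each group is 1 pooled value, and for the same reason no replicate block was fitted and no replicate was left out. Precision was lowest for opposite-strand lines (median SE 2.03 in basal cells) and then for members under 30 FPKM (0.71).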
